A study of Mus musculus with 8 samples.

Results

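Contraction of a skeletal muscle fibre is switched on and off by calcium moving between the sarcoplasmic reticulum, the store inside the fibre, and the cytosol. The 10 genes described here encode the main parts of that cycle: Cacna1s, Cacnb1 and Cacng1 (subunits of the voltage sensor in the surface membrane), Ryr1 (the release channel of the store), Casq1 and Casq2 (calcium-binding proteins inside the store), Atp2a1 and Atp2a2 (pumps that refill it), Sln (an inhibitor of the pumps) and Pvalb (a buffer in the cytosol). They were listed by symbol for their known roles, with earlier results of these data known. Each was found in every deposited table, and they make up 10 of the 21833 gene symbols measured. All 10 passed the filter on low counts and were among the 12755 genes tested.

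RNA was sequenced from gastrocnemius, a mostly fast-fibred calf muscle. The RA+Dipy group (n = 4 mice) was injected with pooled serum of arthritic K/BxN mice, 100 µL into the peritoneum on day 0 and again on day 2, and was also given dipyridamole daily, 25 mg/kg, beginning on day 0. The RA group (n = 4 mice) had the same serum without the drug. Recipients in both groups were male C57BL/6J mice aged 12 weeks, and muscle was taken on day 16. Both groups therefore carry serum-transfer arthritis, and muscle of mice without arthritis was not analysed here. K/BxN serum passes on an antibody-driven arthritis, and dipyridamole blocks the uptake of adenosine into cells and inhibits several phosphodiesterases. The genotype label reads K/BxN for these serum recipients, and the protocol label names dipyridamole for all 8 samples; groups were taken from the titles. The comparison asks which muscle transcripts differ with the drug in a model of the muscle loss that goes with arthritis.

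When a nerve impulse spreads along a fibre, the voltage sensor pulls the release channel open, calcium leaves the store and the filaments slide; the pumps then return the calcium and the muscle relaxes. Fast fibres use the pump SERCA1 (Atp2a1), the store protein calsequestrin 1 (Casq1) and much parvalbumin (Pvalb), which takes up calcium and speeds relaxation. Slow fibres and the heart use SERCA2 (Atp2a2). Calsequestrin 2 (Casq2) is the form of the heart and is also found in slow fibres, beside calsequestrin 1. Sarcolipin (Sln) is in rodents mainly a gene of the atria and of slow and developing muscle.

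The library totals ran from 16.4 to 25.4 M (mega) counts in RA+Dipy and from 16.7 to 50.6 M in RA. Levels are given as CPM, counts scaled to library size with TMM factors, which set libraries to a common level. A count of 0 would have allowed up to 0.254 CPM in the library where that limit was highest (3 counts, counting error only), below every value of the 10 genes. The fast-fibre markers (7 of 7 tested, Myh4 among them) summed to 104318 to 132966 CPM in RA+Dipy and 107398 to 147372 CPM in RA, and the slow-fibre markers (7 of 7) to 261 to 1446 CPM in RA+Dipy and 436 to 1534 CPM in RA. RA replicate 4 had the highest fast-fibre sum and the highest slow-fibre sum. Of 6 heart-muscle markers 2 were tested. The sums over all 6 were 4.28 to 7.79 CPM in RA+Dipy and 5.27 to 23.4 CPM in RA. In bulk tissue, fewer cells of a type and less RNA per cell cannot be told apart. Sums ran from 174 to 283 CPM in RA+Dipy and 243 to 559 CPM in RA for nerve and Schwann cell markers, 230 to 290 CPM in RA+Dipy and 276 to 605 CPM in RA for smooth muscle, and 1265 to 2410 CPM in RA+Dipy and 997 to 2249 CPM in RA for fibroblasts. For red cell markers the sums were 799, 274, 199 and 153 CPM in RA+Dipy replicates 1 to 4, against 263, 149, 228 and 1545 CPM in RA replicates 1 to 4, highest in RA+Dipy replicate 1 and RA replicate 4. Endothelial markers summed to 129 to 256 CPM in RA+Dipy and 123 to 203 CPM in RA, macrophage markers to 125 to 276 CPM in RA+Dipy and 90.7 to 217 CPM in RA, and fat cell markers to 51.8 to 328 CPM in RA+Dipy and 32.3 to 154 CPM in RA. The part of these cells in the results was not tested. Each group held a library unlike its others: RA+Dipy replicate 1 lay over 2-fold from the 8-library median for 16.3% of tested genes and RA replicate 4 for 35.1%, so the fold changes and ratios are also given without these 2 libraries.

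In edgeR's test, 0 of the 10 genes reached an adjusted p under 0.05 when RA+Dipy muscle was set against RA muscle, and for none did the values of the groups stand clear of each other. The log2 fold change was below 0 for 8 genes and above 0 for Cacna1s and Atp2a2, while 47.8% of all genes tested lay below 0. Its median was −0.53 over the 10 genes and 0.02 over all genes tested. With RA replicate 4 alone left out, 6 of the 10 lay below 0, with a median of −0.17 (0.04 over all genes). An unadjusted p under 0.05 was reached by Cacng1 alone, on the lower side, where 2.15% of all genes tested stood (1.68% on the higher side, 3.83% in either direction). DESeq2 gave an unadjusted p under 0.05 for Cacnb1 and Cacng1 (0.0300 and 0.0158; 5.80% of all genes), and limma-voom with library weights for Cacng1 (28.5% of all genes; 1.04% passed its adjusted threshold, and no member did). An adjusted p under 0.05 was reached by 0% of all genes (edgeR), and the groups did not overlap for 2.72%. Without RA+Dipy replicate 1 and RA replicate 4 the median of the 10 genes was −0.08, 0 of 10 had an unadjusted p under 0.05 (11.4% of all genes did) and 0 of 10 had groups that did not overlap (14.1% of all genes). In that fit 7 of the 10 had a log2 fold change below 0, and 48.7% of all genes did.

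**Figure D1:**
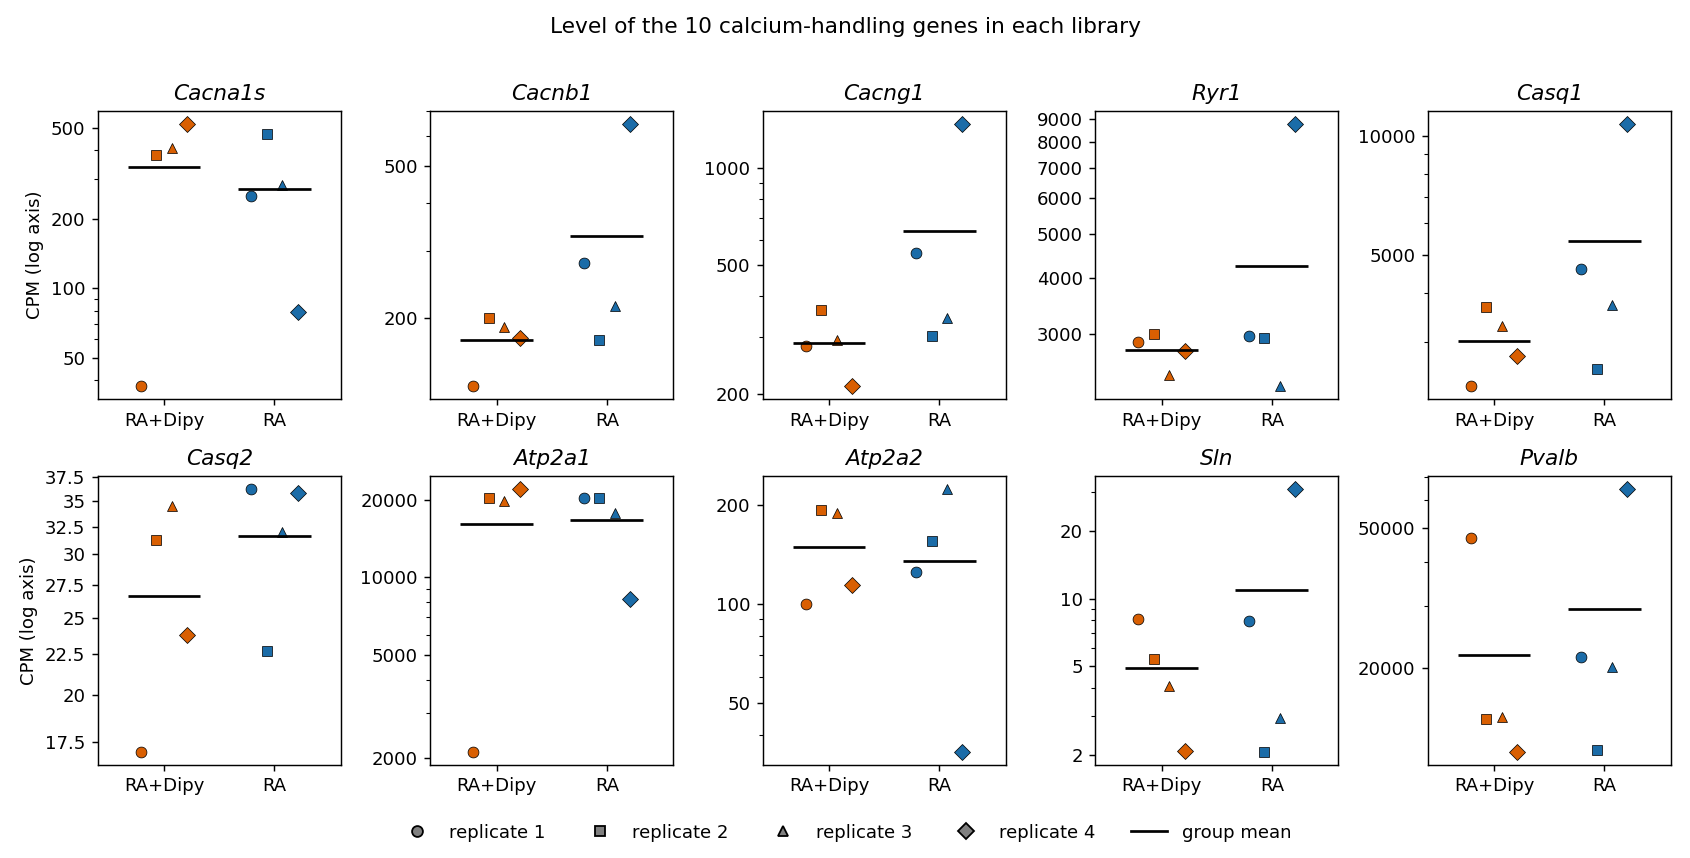
Level of each of the 10 genes in each library, in CPM on a log axis, with RA+Dipy left and RA right; symbols give the replicate and the bar the group mean (n = 4). RA replicate 4 is the highest library in 6 panels, RA+Dipy replicate 1 is the lowest in 5, and the groups overlap in every panel.

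Start regions are shown for 4 of these genes, taken in pairs where each was the other's nearest member in level over the 8 libraries. The pairs were Casq1 with Cacnb1, and Cacna1s with Atp2a1, as described further on. Sln and Pvalb were such a pair too, and no region was available for Sln. Shared control of these genes was not tested. The sequences are the 250 bases before the annotated start, from RefSeq (GRCm38.p6), read 5′ to 3′ on the gene's strand. Capitals mark the E-box, CANNTG, the motif read by myogenic factors such as MyoD (its 2 strands read alike). Cacnb1 has 2 starts in the table, of which the first listed is shown. They lie at chr1:172219896-172220145 (Casq1, minus strand), chr11:98022628-98022877 (Cacnb1, minus), chr1:136052561-136052810 (Cacna1s, plus) and chr7:126463074-126463323 (Atp2a1, minus).
Casq1: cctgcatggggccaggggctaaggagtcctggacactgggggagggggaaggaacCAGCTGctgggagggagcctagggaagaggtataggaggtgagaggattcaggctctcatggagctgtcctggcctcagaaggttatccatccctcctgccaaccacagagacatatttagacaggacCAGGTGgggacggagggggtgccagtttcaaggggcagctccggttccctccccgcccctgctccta
Cacnb1: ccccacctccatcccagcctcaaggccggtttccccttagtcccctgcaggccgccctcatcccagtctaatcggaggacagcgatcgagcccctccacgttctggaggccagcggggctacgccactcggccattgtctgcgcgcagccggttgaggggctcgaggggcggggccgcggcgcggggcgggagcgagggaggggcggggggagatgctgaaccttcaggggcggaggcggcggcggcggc
Cacna1s: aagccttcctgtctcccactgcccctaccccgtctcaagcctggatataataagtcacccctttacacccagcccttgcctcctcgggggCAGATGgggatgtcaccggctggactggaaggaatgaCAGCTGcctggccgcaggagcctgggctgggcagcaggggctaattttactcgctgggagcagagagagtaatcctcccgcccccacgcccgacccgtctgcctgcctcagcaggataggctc
Atp2a1: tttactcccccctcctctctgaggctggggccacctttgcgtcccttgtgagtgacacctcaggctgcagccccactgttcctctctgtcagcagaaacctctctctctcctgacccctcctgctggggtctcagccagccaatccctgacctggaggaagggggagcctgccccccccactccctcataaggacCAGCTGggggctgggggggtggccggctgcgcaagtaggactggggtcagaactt
The E-box letters occurred 2 times before Casq1, 0 times before Cacnb1, 2 times before Cacna1s and 1 time before Atp2a1, and in 66.2% of all 32851 such regions in the table. The region before Cacnb1 had a GC content of 73.2%, against 61.6% to 64.0% in the regions of the other 3. These counts are a description of the letters in this window. The starts differ in GENCODE vM21, the annotation used for gene lengths. There Cacnb1 starts at 98023034, so its window lies inside the gene. The windows of Cacna1s and Atp2a1 run past their starts there (136052750 and 126463108). Regions were in the table for 7 of the 10 genes.

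The voltage sensor of skeletal muscle has the pore-forming subunit Cacna1s, which senses the voltage, the intracellular subunit Cacnb1, which carries it to the membrane, and the membrane subunit Cacng1, which dampens its current. Cacng1 stood at 281, 362, 294 and 211 CPM in RA+Dipy replicates 1 to 4, against 545, 301, 343 and 1369 CPM in RA replicates 1 to 4. The high value of RA replicate 4 lifted the RA mean, and the 2nd highest value, RA replicate 1, was also an RA library, while RA replicates 2 and 3 lay within the range of RA+Dipy. The means were 287 ± 61.8 CPM in RA+Dipy and 639 ± 498 CPM in RA (SD, n = 4 each). The log2 fold change was −1.16 (SE 0.48, 95% interval −2.22 to −0.09, edgeR adjusted p = 0.882). Without both libraries it was −0.45 (interval −1.02 to 0.12).

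Cacnb1 followed a similar course, at 132, 200, 189 and 177 CPM in RA+Dipy, against 278, 175, 214 and 647 CPM in RA. RA replicate 4 was again the highest and RA+Dipy replicate 1 the lowest of the 8 libraries. Its log2 fold change was −0.91 (SE 0.41, interval −1.83 to 0.01, edgeR adjusted p = 0.882), and −0.23 (interval −0.62 to 0.17) without both libraries.

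Cacna1s, the subunit the other 2 attach to, went another way. It stood at 37.5, 382, 410 and 520 CPM in RA+Dipy, against 253, 471, 282 and 78.7 CPM in RA. Here RA+Dipy replicate 1 and RA replicate 4 were the lowest of the 8 libraries, and the other 6 lay within a 2.06-fold range. Cacna1s had a log2 fold change of 0.32 (SE 0.70, interval −1.24 to 1.87) with all libraries and 0.39 (SE 0.24, interval −0.16 to 0.94) without both. Cacna1s shares 1309 exon bases with an annotated antisense gene, and counting without strand cannot separate the reads of the 2 there.

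Ryr1, the channel through which the store empties, was nearly level except in a single library. It stood at 2889, 3005, 2439 and 2755 CPM in RA+Dipy, against 2982, 2946, 2305 and 8772 CPM in RA. Without RA replicate 4 and RA+Dipy replicate 1 the levels kept within a 1.30-fold range. The log2 fold change was −0.62 (SE 0.44, interval −1.58 to 0.35), but without both libraries it was 0.0009 (interval −0.38 to 0.38).

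Calsequestrin 1, encoded by Casq1, holds calcium in the store of fast fibres close to the release channel. Casq1 stood at 2319, 3678, 3303 and 2766 CPM in RA+Dipy, against 4583, 2559, 3734 and 10725 CPM in RA. The order of the libraries was like that of Cacnb1, with RA replicate 4 highest, RA replicate 1 next and RA+Dipy replicate 1 lowest. Casq1 had a log2 fold change of −0.84 (SE 0.45, interval −1.83 to 0.15), and −0.15 (interval −0.64 to 0.34) without both libraries.

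Casq2, the cardiac form that slow fibres also hold, was far less abundant. It varied least of the 10 genes over all 8 libraries, within a 2.14-fold range. It stood at 17.0, 31.3, 34.5 and 23.8 CPM in RA+Dipy, against 36.2, 22.7, 32.0 and 35.8 CPM in RA. RA replicate 4 did not stand out for this gene, while RA+Dipy replicate 1 was the lowest. The log2 fold change was −0.25 (SE 0.28, interval −0.87 to 0.38), and −0.01 (interval −0.45 to 0.43) without both libraries.

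Atp2a1, the fast-fibre pump, was almost level in 6 libraries, very low in RA+Dipy replicate 1 and less markedly low in RA replicate 4. It stood at 2117, 20351, 19662 and 21923 CPM in RA+Dipy, against 20270, 20338, 17760 and 8217 CPM in RA. The 6 libraries kept within a 1.23-fold range, the narrowest of the 10 genes, whereas over all 8 the range was 10.4-fold. Over all libraries, the log2 fold change was −0.06 (SE 0.61, interval −1.42 to 1.31) and 0.09 (SE 0.16, interval −0.26 to 0.45) without both. Atp2a1 shares 763 exon bases with Rabep2 on the opposite strand. Other members also overlap annotated genes on the opposite strand, by up to 914 exon bases for Ryr1. The overlap is 156 bases for Casq1, 83 for Atp2a2 and 80 for Cacnb1.

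Atp2a2 encodes the pump of slow fibres and heart, and in another splice form that of most other cells. It stood at 100, 194, 189 and 114 CPM in RA+Dipy, against 125, 156, 224 and 35.5 CPM in RA. Apart from the low RA replicate 4 the groups covered much the same range. Atp2a2 had a log2 fold change of 0.15 (SE 0.48, interval −0.93 to 1.22), and −0.01 (interval −0.57 to 0.55) without both libraries. The highest Atp2a2 library, RA replicate 3, was also the highest for the slow-fibre myosin Myh7 (129 CPM, against 39.7 to 100 CPM in RA+Dipy and 59.3 to 82.2 CPM in the other RA libraries). The sum of slow-fibre markers did not follow Atp2a2 in this way. It was highest in RA replicate 4 (1534 CPM), where Atp2a2 was lowest, then 1446 CPM in RA+Dipy replicate 1 and 1431 CPM in RA replicate 3. The part of slow fibres in the Atp2a2 level was not tested.

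Sln, a short membrane protein that uncouples ATP use by the pump from transport, was the least abundant of the 10, with 52 to 403 counts per library. It stood at 8.12, 5.39, 4.08 and 2.08 CPM in RA+Dipy, against 7.94, 2.07, 2.93 and 30.8 CPM in RA. It had the widest range, 14.9-fold over all libraries and 3.84-fold without the 2 that stood apart. The log2 fold change was −1.14 (SE 0.78, interval −2.88 to 0.60), −0.18 (interval −1.36 to 0.99) without both libraries, and 0.18 when RA replicate 4 alone was left out.

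Pvalb, the cytosolic buffer, had the highest mean CPM of the 10 genes in both groups, but less than Atp2a1 in RA+Dipy replicates 2, 3 and 4 and in RA replicate 2. It stood at 46679, 14320, 14438 and 11540 CPM in RA+Dipy, against 21475, 11649, 20116 and 64431 CPM in RA. Here the library that stood apart was the highest in each group, and in the rest of the libraries 2 RA values lay above and 1 within the RA+Dipy range. Pvalb had a log2 fold change of −0.44 (SE 0.62, interval −1.81 to 0.94) with all libraries, −0.39 (SE 0.23, interval −0.92 to 0.13) without both, and 0.32 when RA replicate 4 alone was left out.

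**Figure D2:**
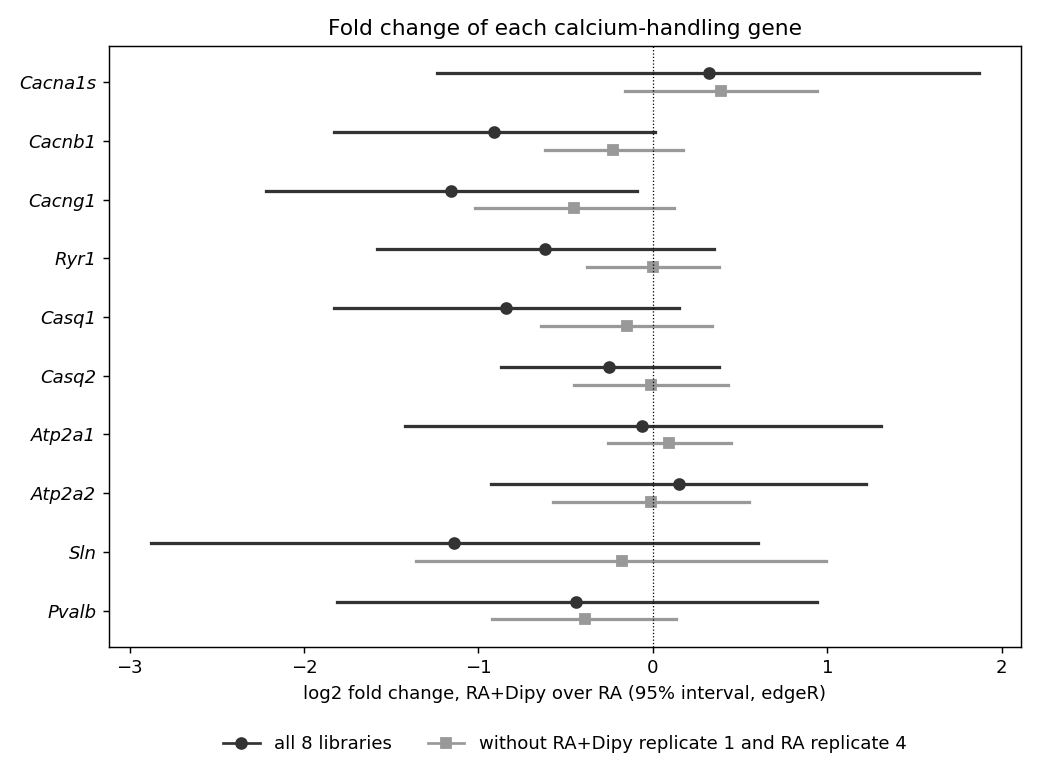
Log2 fold change of RA+Dipy over RA for each gene with its 95% interval from edgeR, for all 8 libraries (dark circles) and without RA+Dipy replicate 1 and RA replicate 4 (grey squares). The interval of Cacng1 with all libraries, −2.22 to −0.09, is the sole one that leaves out 0.

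Set per kilobase of transcript, so that genes of different length can be compared, the levels spanned several orders of magnitude. Pvalb averaged 22256 ± 17070 CPM per kb in RA+Dipy and 30110 ± 24302 in RA (SD, n = 4 each), and ranked first in all 8 libraries. Atp2a1 came next with 4605 ± 2678 CPM per kb in RA+Dipy and 4788 ± 1653 in RA, ahead of Casq1 with 1633 ± 323 in RA+Dipy and 2924 ± 1974 in RA; in RA+Dipy replicate 1 and RA replicate 4 these 2 changed places. Cacng1 (230 ± 49.5 CPM per kb in RA+Dipy, 512 ± 399 in RA) and Ryr1 (180 ± 15.9 in RA+Dipy, 277 ± 197 in RA) formed a middle tier whose values did not separate beyond their spread. Below them came Cacnb1 (51.4 ± 8.75 in RA+Dipy, 96.8 ± 63.8 in RA), Cacna1s (54.0 ± 33.4 in RA+Dipy, 43.4 ± 25.7 in RA) and Atp2a2 (33.3 ± 10.9 in RA+Dipy, 30.1 ± 17.4 in RA). Cacna1s overlapped both its neighbours in either group, while every RA library had more Cacnb1 than any RA library had Atp2a2 (at least 51.7 against at most 49.9 CPM per kb). In RA+Dipy these genes overlapped, with Cacnb1 at 38.9 in replicate 1 and Atp2a2 at 43.2 in replicate 2. Within each library Cacnb1 was the higher. Casq2 (10.4 ± 3.08 in RA+Dipy, 12.4 ± 2.46 in RA) and Sln (3.73 ± 1.92 in RA+Dipy, 8.29 ± 10.2 in RA) were lowest in the 6 libraries that did not stand apart. Together the 10 genes took 4.41% to 5.04% of counts in RA+Dipy and 4.37% to 6.68% in RA.

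Ratios between members within a library need no scaling between libraries, and they were compared for 7 pairs. The smallest adjusted p was 0.72 (exact permutation test, two-sided, adjusted over 7 ratios). The 70 assignments allow no unadjusted p below 0.0286, so after adjustment a single ratio could not have passed on its own, and the values are given as a description. Atp2a2 reads per Atp2a1 read were 0.0474, 0.00952, 0.00963 and 0.00522 in RA+Dipy, against 0.00616, 0.00768, 0.0126 and 0.00432 in RA. The slow form of the pump thus stayed a small fraction of the fast form in every library, and the one higher ratio belonged to RA+Dipy replicate 1, where Atp2a1 was low. The difference in mean log2 ratio was 0.79 with all libraries and −0.10 without both.

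Casq2 reads per Casq1 read were 0.00731, 0.00852, 0.0104 and 0.00860 in RA+Dipy, against 0.00790, 0.00888, 0.00857 and 0.00334 in RA. Outside RA replicate 4 and RA+Dipy replicate 1 this ratio moved within 1.32-fold, less than the 2.41-fold of the pump forms. The mean log2 ratio differed by 0.37 (exact permutation p = 0.429), and by 0.12 without both libraries.

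Pvalb reads per Atp2a1 read were 22.1, 0.704, 0.734 and 0.526 in RA+Dipy, against 1.06, 0.573, 1.13 and 7.84 in RA. This ratio of reads, which takes no account of the longer Atp2a1 transcript, was highest in the 2 libraries that stood apart and covered a 41.9-fold range in all. The mean log2 ratio differed by 0.04 (exact permutation p = 1), and by −0.45 without both libraries.

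The voltage-sensor subunits did not keep a constant ratio. Cacng1 reads per Cacna1s read were 7.47, 0.945, 0.717 and 0.405 in RA+Dipy, against 2.16, 0.639, 1.21 and 17.4 in RA, a 43.0-fold range. Ryr1 reads per Cacna1s read were 77.0, 7.86, 5.95 and 5.29 in RA+Dipy, against 11.8, 6.25, 8.17 and 111 in RA. Cacnb1 per Cacna1s ranged 24.1-fold in the same order of the 2 highest libraries. The differences in mean log2 ratio were −0.96 for Cacng1, −0.79 for Cacnb1 and −0.46 for Ryr1 (exact permutation p = 0.514, 0.514 and 0.486), and −0.87, −0.64 and −0.43 without both libraries, where RA replicate 1 had the highest value of each. Sln reads per pump read, at 9.44e-05 to 0.000389 in the other 6 libraries, were 0.00366 in RA+Dipy replicate 1 and 0.00373 in RA replicate 4, and the groups differed by −0.09 (p = 0.914, exact permutation), and by −0.11 without both.

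**Figure D3:**
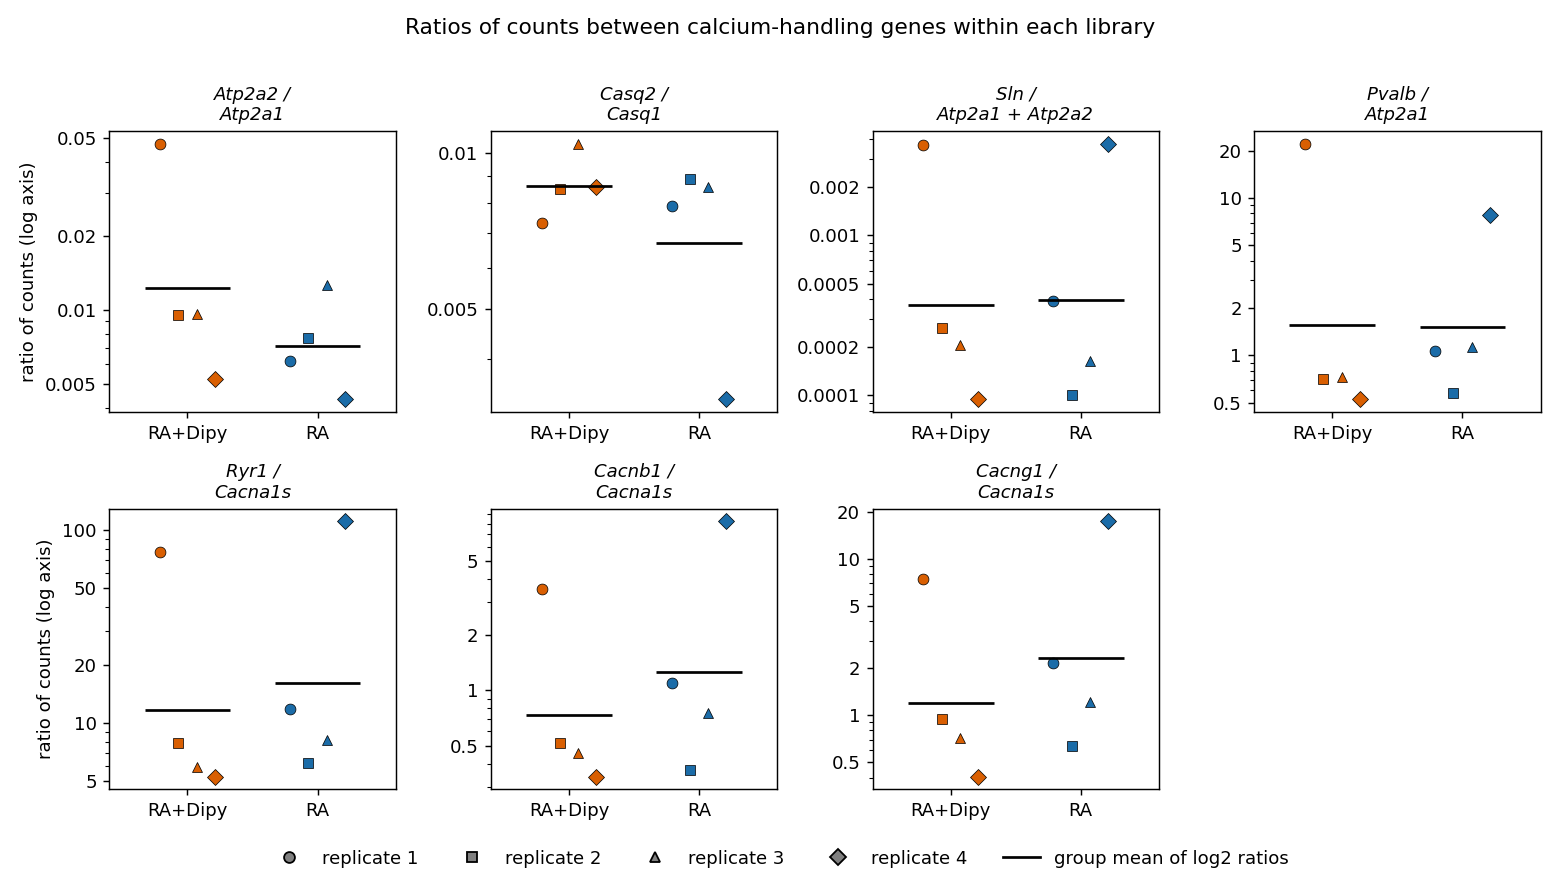
Ratio of counts between calcium-handling genes in each library, on a log axis, with RA+Dipy left and RA right; symbols give the replicate and the bar the mean of the log2 ratios (n = 4). RA+Dipy replicate 1 and RA replicate 4 hold the 2 highest values in 5 of the 7 panels, such as 22.1 and 7.84 for Pvalb over Atp2a1.

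The 2 libraries that stood apart held most of the extremes, but not in one direction. RA replicate 4 was the highest of the 8 for 6 of the 10 genes (Cacnb1, Cacng1, Ryr1, Casq1, Sln and Pvalb) and the lowest for Atp2a2; it was the highest for 32.4% and the lowest for 33.7% of all genes tested. RA+Dipy replicate 1 was the lowest for 5 (Cacna1s, Cacnb1, Casq1, Casq2 and Atp2a1) and the highest for 0, against 24.2% and 20.0% of all genes tested. Taking each gene's log2 deviation from its 8-library median, both libraries lay below it for Cacna1s and Atp2a1. For Cacna1s the values were −3.11 in RA+Dipy replicate 1 and −2.06 in RA replicate 4. For Atp2a1 they were −3.24 in RA+Dipy replicate 1 and −1.28 in RA replicate 4. Both libraries lay above the median for Pvalb (1.45 in RA+Dipy replicate 1, 1.92 in RA replicate 4). For Cacnb1 the 2 libraries lay on opposite sides, at −0.55 in RA+Dipy replicate 1 and 1.73 in RA replicate 4. The part of RNA quality or library preparation in these values was not tested.

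**Figure D4:**
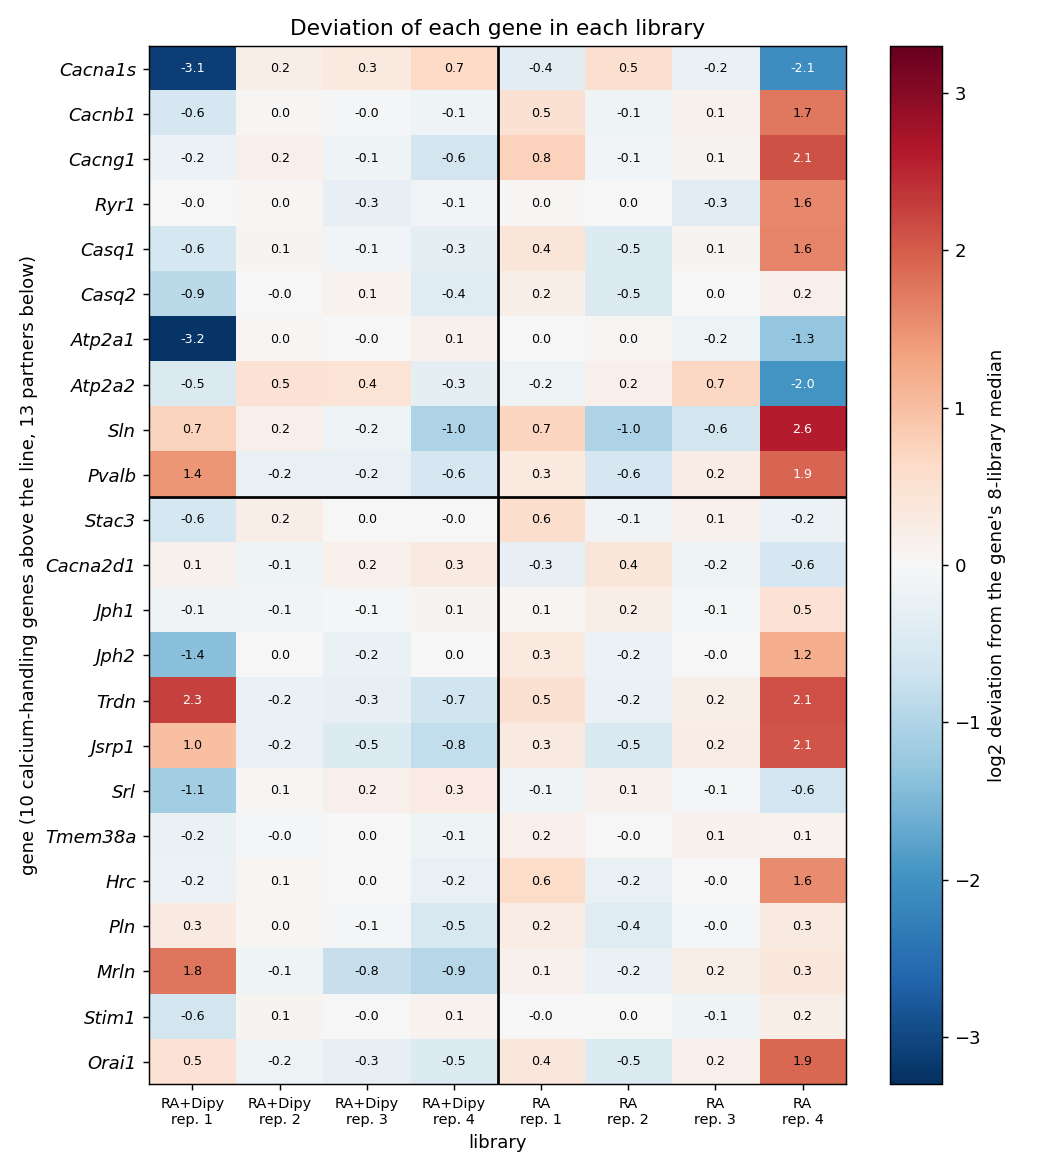
Log2 deviation of each gene from its own 8-library median, for the 10 calcium-handling genes (above the line) and 13 partners of the same pathway (below it), with RA+Dipy libraries left and RA libraries right. The 2 outer columns, RA+Dipy replicate 1 and RA replicate 4, carry the deep colours, from −3.24 for Atp2a1 to 2.59 for Sln.

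Over the 8 libraries the course of some members was nearly the same. After each gene was centred on its mean, Casq1 and Cacnb1 differed by a root mean square of 0.10 log2 units, the smallest distance between 2 members, whereas the median gene lay 0.75 from either. Cacna1s had Atp2a1 as its nearest member, at 0.42 (median gene 1.29). Smaller distances to the nearest member were those of Cacng1 to Casq1 (0.25) and of Ryr1 to Cacnb1 (0.32). Sln and Pvalb were each other's nearest member, at 0.54. Among genes outside the 10, the closest to Cacnb1 were Ppan, Rhoc and Capns1 (0.06, 0.06 and 0.07), and Capns1 also led for Casq1 (0.09). The closest to Pvalb were Sf3b5, Cox6b1 and Ptges3l (0.08, 0.09 and 0.10), those to Ryr1 were Arid1a, Taok3 and Usp36 (0.09 each), and those to Atp2a1 were Ntng2, Phospho1 and Wdr6 (0.22, 0.23 and 0.26). Atp2a2 lay closest to the myoglobin gene Mb (0.22) and Sln to Crybb1 (0.26). These genes were picked as nearest of 12755 over 8 libraries, with both libraries that stood apart included, and are given as a description.

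Other genes of the pathway came from a list of 71, the 10 members included, of which 70 were tested. None passed the adjusted threshold and none had groups that did not overlap; 24 had a log2 fold change above 0 and 46 below 0, with a median of −0.10. With library totals alone as the scaling, which moved the median of all genes by 0.13 (log2) to 0.16, the split was 40 above and 30 below 0 and the list median 0.05. Counted against the median of all genes, 49 of 70 lay below it under either scaling. Without the 10 members the count was 22 above and 38 below 0, with a median of −0.07. For comparison, 47.8% of all genes tested had a log2 fold change below 0. With RA replicate 4 alone left out, the list of 71 had 30 genes above and 40 below 0, with a median of −0.04 (0.04 over all genes).

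Among the partners of the voltage sensor and of the junction between membrane and store, 0 passed the adjusted threshold. Stac3, an adaptor the sensor needs to reach the junction, averaged 277 ± 59.2 CPM in RA+Dipy and 316 ± 80.2 CPM in RA (log2 fold change −0.19, SE 0.29; −0.14 without both libraries that stood apart). Cacna2d1, the outer subunit of the sensor, had a value of 0.23 (SE 0.27), and 0.11 without both. Jph1, which ties the store to the membrane, had −0.23 (SE 0.24), and −0.09 without both. The related Jph2 had −0.74 (SE 0.42), but −0.11 without both. Tmem38a, a potassium channel of the store, was the steadiest partner, at 1190 ± 78.8 CPM in RA+Dipy and 1362 ± 71.3 CPM in RA (−0.20, SE 0.25; −0.15 without both) and within a 1.31-fold range over all 8 libraries.

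Trdn, encoding triadin, which anchors calsequestrin to the release channel, was a case apart. It stood at 9950, 1769, 1717 and 1311 CPM in RA+Dipy, against 2961, 1767, 2430 and 9098 CPM in RA. The high library of each group cancelled in the fold change, −0.14 (SE 0.74), which was −0.57 (SE 0.21, interval −1.04 to −0.09) without both, 0.66 when RA replicate 4 alone was left out and −1.34 when RA+Dipy replicate 1 alone was. Jsrp1, another protein of the junction, stood at 1459, 629, 542 and 422 CPM in RA+Dipy, against 904, 522, 872 and 3135 CPM in RA (−0.83, SE 0.60; −0.52, SE 0.23, without both; 0.02 when RA replicate 4 alone was left out). With offsets for transcript length and GC content the values were −0.96 for Trdn and −0.17 for Jsrp1. Of the store proteins, Hrc had −0.74 (SE 0.41; −0.20 without both) and Srl, sarcalumenin, 0.07 (SE 0.36; 0.17 without both).

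Of the small pump inhibitors, Mrln, encoding myoregulin, stood at 256, 68.6, 44.2 and 38.5 CPM in RA+Dipy, against 81.9, 64.3, 85.6 and 95.2 CPM in RA. A single high library, RA+Dipy replicate 1, set the sign of its log2 fold change, 0.32 (SE 0.56), which was −0.61 (SE 0.21, interval −1.08 to −0.14) without both. Pln, phospholamban, the pump inhibitor of the heart, was low, at 0.640 to 1.52 CPM in RA+Dipy and 0.748 to 1.52 CPM in RA. Its log2 fold change was −0.12 (SE 0.36), and −0.19 without both. Pln shares up to 1785 exon bases with annotated genes on the opposite strand, Cep85l among them. Counting without strand cannot separate the reads there. Of the genes of store refilling, Stim1, the calcium sensor of the store, had −0.09 (SE 0.25; 0.13 without both). Orai1, the channel it opens, stood at 75.7, 48.4, 44.9 and 39.3 CPM in RA+Dipy, against 70.5, 39.1, 60.4 and 202 CPM in RA. Its log2 fold change, −0.84 (SE 0.48), was −0.10 when RA replicate 4 alone was left out and −0.35 without both.

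Without RA+Dipy replicate 1 and RA replicate 4, 7 genes of the list reached an unadjusted p under 0.05, 6 lower (Trdn, Jsrp1, Mrln, Stim2, Orai3 and Ppp3ca) and 1 higher (Rcan2), where 5.45% and 5.96% of all genes tested did. The adjusted p was 0.418 to 0.435 for all 7 (edgeR), so none passed. The list then had 21 genes above and 48 below 0, with a median of −0.12. Groups did not overlap for 7 of its genes (Atp2b1, Stim2, Orai3, Saraf, Mcub, Ppp3ca and Rcan2), where 14.1% of all genes tested did not. Stim2, Orai3, Ppp3ca, Rcan2, Atp2b1, Saraf and Mcub were named after their values were seen. None of the 10 members was among either 7.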

How the data were processed

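The authors deposited, for each of the 8 libraries, raw read counts per protein-coding gene symbol; the tables held 21859 lines, and the counts of 24 symbols that stood on more than 1 line were summed. Per the submitters' processing notes and the series' design text, the authors trimmed the single-end reads (100 nt) using fastp 0.20.0, mapped them to GRCm38.p6 by STAR 2.7.3a, and let HTSeq count them regardless of strand. No source used here names the gene annotation release. The labels name a TruSeq poly(A) kit and the design text a directional NEBNext kit. Genes were kept by filterByExpr (minimum count 10), scaled by TMM and compared with the two-sided quasi-likelihood test of edgeR 4.0.16 (R 4.3.3, robust, group as the sole term), with Benjamini-Hochberg adjustment over all 12755 genes and a threshold of 0.05. Fold changes are log2 of RA+Dipy over RA; intervals are 95%, from the SE (fold change over the root of the F statistic) and the moderated degrees of freedom. The fit was also run on simulated counts in which no library stood apart. That run therefore cannot show how the fit handles libraries such as RA+Dipy replicate 1 and RA replicate 4.

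The members and lists were chosen with earlier results of these data known. Named genes were the 10 members, 13 partners and Myh4, Myh7, Tnnt1 and Tnnt3, fixed by name, any other listed gene with an unadjusted p under 0.05 or groups that did not overlap (there was no such gene with all 8 libraries), and the 3 genes nearest to each member. Gene lengths (longest coding transcript) and overlaps come from GENCODE vM21 (GRCm38), which matched 21302 of 21833 symbols. No pair of libraries in a group agreed within sampling noise (smallest chi-square per degree of freedom 27.7), and the design text gives 4 mice per group. DESeq2 1.42.0 and limma 3.58.1 were run as alternatives.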

Additional observations from a re-analysis of the deposited data

Results flagged for a closer look

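In a group of 4, a library was picked out when its gap to the nearest of the others exceeded Dixon's 95% critical share of the group's range. This was checked 68 times, for the 10 members, 13 partners, 4 fibre genes (Myh4, Myh7, Tnnt1 and Tnnt3) and 7 ratios in each group, and chance picks about 1 group in 20. It picked 11 values, 6 of them from RA+Dipy replicate 1 and 5 from RA replicate 4. Genes and their own ratios share values, so the 68 checks are not independent. The share of all genes that this rule would pick was not computed. Over all genes tested, RA+Dipy replicate 1 lay over 2-fold from the 8-library median for 16.3% and RA replicate 4 for 35.1%. The picks are therefore not read as particular to calcium handling.

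In RA+Dipy replicate 1, Atp2a1 was at 2117 CPM, against 19662 to 21923 CPM in the other RA+Dipy libraries, while Pvalb was at 46679 CPM, against 11540 to 14438 CPM. Of the partners there, Trdn was at 9950 CPM, against 1311 to 1769 CPM, and Mrln at 256 CPM, against 38.5 to 68.6 CPM. The log2 ratio of Pvalb over Atp2a1 in that library was 4.46, against −0.93 to −0.45, and that of Ryr1 over Cacna1s was 6.27, against 2.40 to 2.97.

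In RA replicate 4, Ryr1 was at 8772 CPM, against 2305 to 2982 CPM in the other RA libraries, Trdn at 9098 CPM, against 1767 to 2961 CPM, and Jsrp1 at 3135 CPM, against 522 to 904 CPM. The fast myosin Myh4 was at 29846 CPM, against 47588 to 50511 CPM. The fast troponin Tnnt3, which the rule did not pick, went the other way, at 57171 CPM against 28532 to 40931 CPM. The sum of fast-fibre markers was also highest in RA replicate 4 (147372 CPM). The log2 ratio of Casq2 over Casq1 was −8.23, against −6.98 to −6.82.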

How the results depend on the processing

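Under 21 alternatives no member passed the adjusted threshold (smallest adjusted p 0.162), and 0 genes in all were called except with limma-voom and library weights, which called 133. Neither did the replicate block change a call: 0 genes passed with it, and the smallest adjusted p was 0.971. The replicate numbers share no animal, and same-numbered libraries correlated at −0.22, 0.12, 0.17 and −0.29 in their deviations, with 0 of 4 RA+Dipy libraries best matched to their own number. With library totals alone the list of 71 had 40 genes above and 30 below 0 and a median of 0.05. Leaving out 1 replicate gave list medians of −0.20 to −0.04, the latter without RA replicate 4. Signs of 5 members turned under some alternative. Atp2a1 stood at 0.08 with library totals, 0.01 with upper-quartile factors, 0.06 with library weights and 0.09 without both libraries that stood apart. Atp2a2 stood at −0.02 with library weights and −0.01 without both, and Ryr1 at 0.0009 without both. Leaving out 1 replicate gave −0.28 to 0.31 for Atp2a1, −0.16 to 0.49 for Atp2a2, −0.82 to 0.03 for Ryr1, −1.48 to 0.18 for Sln and −1.13 to 0.32 for Pvalb. With length and GC offsets Ryr1 stood at −0.05. Genes over 1% of counts, Atp2a1 and Pvalb among them, have no value where those genes were left out.

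Partners and fibre genes whose sign turned were Trdn (0.06 with library totals; −1.34 to 0.66 leaving out 1 replicate), Jsrp1 (−1.35 to 0.02), Srl (−0.01 with length and GC offsets, −0.0015 with limma-voom; −0.06 to 0.30), Pln (0.02 with library totals; −0.30 to 0.07), Mrln (−0.08 with offsets, −0.12 with limma-voom, −0.75 with library weights, −0.16 with the replicate block, −0.61 without both; −0.69 to 0.59), Stim1 (0.01 with offsets, 0.09 with library totals, 0.10 with library weights, 0.13 without both; −0.16 to 0.05), Cacna2d1 (−0.04 with offsets), Myh4 (−0.08 to 0.18) and Myh7 (0.08 with offsets; −0.29 to 0.12). For the ratios, without both libraries Atp2a2 over Atp2a1 differed by −0.10 and Pvalb over Atp2a1 by −0.45, and Pvalb over Atp2a1 by −0.38 from summed CPM. Leaving out 1 replicate gave 0.14 to 1.20 for Atp2a2 over Atp2a1, −1.19 to 0.99 for Sln per pump, −1.23 to 0.83 for Pvalb over Atp2a1, and −1.36 to 0.48, −1.54 to 0.12 and −1.84 to 0.01 for Ryr1, Cacnb1 and Cacng1 over Cacna1s. The causes were not tested.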
